A study of Mus musculus with 9 samples.

Results

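The genes described here are the nuclear-encoded subunits of respiratory complexes II to V. They were chosen by mouse symbol alone: Sdha, Sdhb, Sdhc and Sdhd, and every symbol beginning with Uqcr, Cox4i, Cox5, Cox6, Cox7, Cox8 or Atp5, with 7 pseudogenes left out. This gave 48 of the 52636 genes in the count table, of which 4 belong to complex II, 8 to complex III, 19 to complex IV and 17 to complex V. Usmg5 and Atpif1, which newer lists name as Atp5 genes, carry other symbols here and are not members.

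Complex II passes electrons from succinate to ubiquinone, complex III passes them on to cytochrome c, and complex IV hands them to oxygen. Complex V, the ATP synthase, uses the proton gradient that complexes III and IV help to build. Several subunits exist as pairs of isoforms, of which one is found in most cells and the other in muscle, testis, lung or mural cells. In thyrocytes the process supplies ATP for iodide uptake and hormone synthesis.

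The data are droplet-based single-cell RNA profiles of whole thyroids from male C57BL/6 mice, aged 10 to 12 weeks in the series' design text and up to 14 weeks in the protocol. Each mouse was given 1 intraperitoneal injection of antibodies. Group RW received 40 mg/kg of a control antibody that binds ragweed. Group aJ1aJ2 received the ligand blockade, 20 mg/kg of anti-Jag1 together with 20 mg/kg of anti-Jag2. Group aN1aN2 received the receptor blockade, 5 mg/kg of anti-Notch1 together with 10 mg/kg of anti-Notch2. Treatment lasted 7 days, no group was left without an antibody, and no sample carried an engineered allele. Each group had 3 samples, each a pool of the thyroids of 6 mice, so differences among mice within a pool are not seen. The design asks how the adult thyroid depends on Notch signalling, a contact-dependent pathway between neighbouring cells.

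The table held 10186 cells under 16 cell labels deposited by the authors, and the 9 samples held 583 to 1805 cells and 3013324 to 11880793 unique molecular identifiers (UMIs) each. UMIs were summed per sample and label, sums of fewer than 20 cells were left out of tests, and counts per 1000000 UMIs (CPM) refer to the sum after scaling by the trimmed mean of M-values (TMM). The label Th1 carried the thyrocyte markers, which summed to 92285 to 98668 CPM in RW. Th3 mixed thyrocyte, C-cell and skeletal muscle RNA, and the labels EC1 to EC4 were endothelial. Receptor blockade coincides with its own range of sample numbers in the titles, and the treatment and that range cannot be told apart. The median Th1 cell held 12535 to 22558 UMIs in RW, 9968 to 15314 in aJ1aJ2 and 5737 to 7558 in aN1aN2. There were 15 cell barcodes that occurred in more than 1 library, covering 30 cells. A gene is called at a Benjamini-Hochberg adjusted p under 0.05 in edgeR's quasi-likelihood test over all genes of a label.

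Among the labels with 3 RW samples, the thyrocyte label Th1 and the mixed label Th3 held the highest shares of RNA from these genes. In the RW samples the members held 2.49% ± 0.144 of all Th1 UMIs (SD, n = 3). The share in Th3 was 2.36% ± 0.362 (SD, n = 3). Endothelial cells were lower, at 1.40% ± 0.0462 in EC3, 1.33% ± 0.0774 in EC1 and 0.951% ± 0.0353 in EC4 (SD, n = 3 each). Fibroblast-like cells under the label F held 1.02% ± 0.106 (SD, n = 3). The label T1 held 1.38% ± 0.135 and the label M, with macrophage markers, 1.28% ± 0.119 (SD, n = 3 each). T1, EC3, EC1 and M are neighbours in this order and do not differ beyond their spread. Erythroid cells were far below all of these, with 0.0510% ± 0.00863 in Eryth1 and 0.0306% ± 0.00188 in Eryth2 (SD, n = 3 each). The labels differ in depth, with a median of 987 UMIs per cell in Th3 and 12553 in Th1, so the order is a description.

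**Figure D1:**
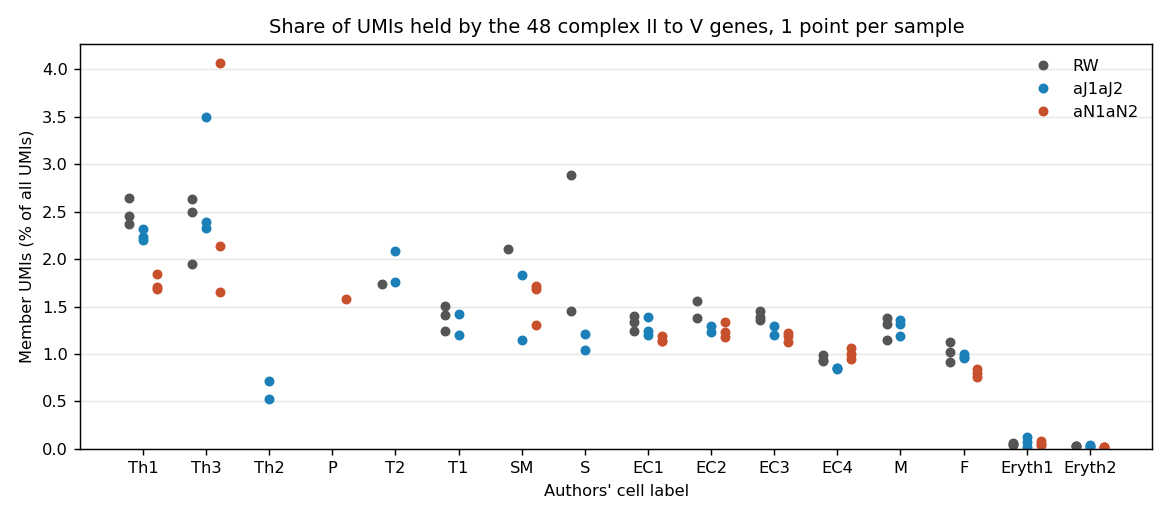
Share of all UMIs (in %, y axis) held by the 48 genes in each authors' cell label (x axis), with 1 point per sample of at least 20 cells, coloured by antibody group. The Th1 points of aN1aN2 lie between 1.69 and 1.84, below the aJ1aJ2 points (2.20 to 2.31) and the RW points (2.37 to 2.65).

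In Th1 the share was 2.46%, 2.37% and 2.65% in RW 1, 2 and 3. It was 2.31%, 2.23% and 2.20% in aJ1aJ2 1, 3 and 4, and 1.69%, 1.71% and 1.84% in aN1aN2 1, 2 and 3. The 3 groups did not overlap, and the receptor blockade was lowest. Each complex had a lower mean share in aN1aN2 than in RW. Complex II went from 0.0596% to 0.0470%, complex III from 0.426% to 0.277%, complex IV from 1.08% to 0.779% and complex V from 0.931% to 0.641%. The aJ1aJ2 means lay between these for every complex, at 0.0574%, 0.379%, 0.981% and 0.830%. No test was made on these summed shares.

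Of the 48 members, 44 passed the count filter in Th1 and were tested. Cox7b2 had no UMI in any cell, Cox8c had 3 UMIs in Th1, and Cox8b and Cox4i2 were also too low to test there. Under receptor blockade 33 of the 44 were called against RW, 3 higher and 30 lower, whereas 34.4% of all genes tested in Th1 were called, 17.1% higher and 17.3% lower. The members' median log2 change was -0.59, beside a median of 0.02 over all genes. All the complexes took part: 3 of 4 complex II genes, 5 of 8 in complex III, 10 of 15 tested in complex IV and 12 of 17 in complex V fell. Under ligand blockade no member was called against RW by edgeR, where 0.612% of all genes were called. There 10 of the 44 members had an unadjusted edgeR p under 0.05, as had 1310 of all 10627 genes. DESeq2 called 0 members, and the members' median was -0.13 (0.01 over all genes). Leaving out aJ1aJ2 1 gave 4 calls (4.9% of all genes in that fit), namely Uqcrq, Atp5g1 and Atp5k lower and Cox7a2l higher. Compared directly with ligand blockade, receptor blockade gave 30 calls, 3 higher and 27 lower, with a median of -0.42 (22.3% of all genes called, 10.8% higher and 11.5% lower). Both comparisons with RW share the RW samples.

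**Figure D2:**
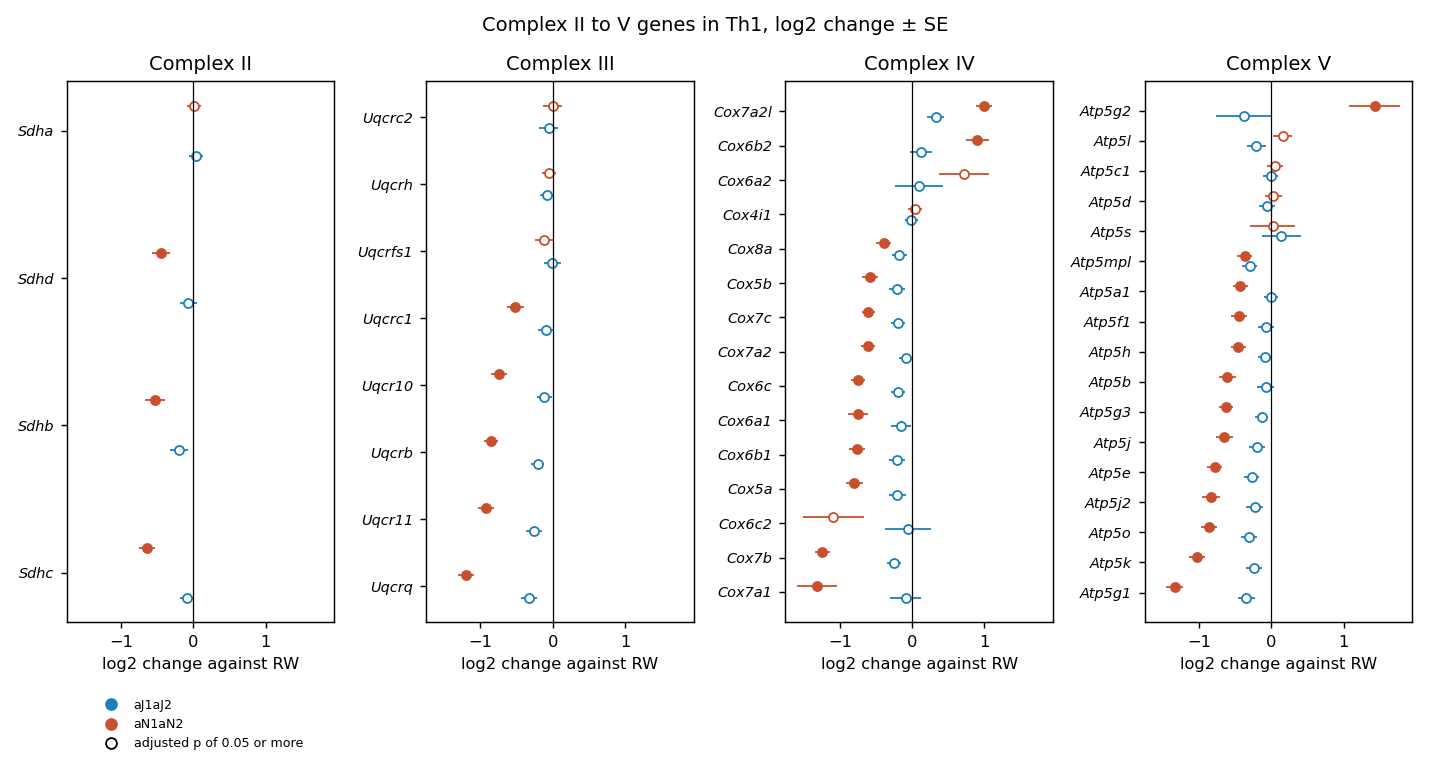
Log2 change ± SE against RW in Th1 (x axis) for each tested member (y axis), in 1 panel per complex, with ligand blockade and receptor blockade drawn separately. Most aN1aN2 points lie left of 0, down to Atp5g1 at -1.34, whereas Cox7a2l (1.00), Cox6b2 (0.90) and Atp5g2 (1.43) lie to the right.

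Complex II has 4 subunits, all also part of the citric acid cycle. Sdha, the flavoprotein that oxidises succinate, was at 187, 179 and 183 CPM in RW, 188, 185 and 190 in aJ1aJ2, and 172, 189 and 192 in aN1aN2. These values overlapped in all groups (log2 change in aN1aN2 0.00 ± 0.10 SE, edgeR adjusted p 0.982). Sdhc, a membrane anchor that helps bind haem and ubiquinone, was at 145, 147 and 152 CPM in RW, 138, 135 and 144 in aJ1aJ2, and 90.8, 91.3 and 105 in aN1aN2. Every aN1aN2 sample was below every other sample, and the log2 change against RW was -0.64 ± 0.11 SE (edgeR adjusted p 0.000289). Against aJ1aJ2 it was -0.55 (edgeR adjusted p 0.00195). The iron-sulfur subunit Sdhb fell by 0.53 on the log2 scale (edgeR adjusted p 0.00604) and the other anchor, Sdhd, fell by 0.45 (0.0102). Under ligand blockade the 4 genes had log2 changes of -0.20 to 0.04.

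In complex III 5 of 8 subunits fell in Th1 under receptor blockade and 3 were not called. Uqcrq, a small subunit that contacts cytochrome b, was at 579, 549 and 599 CPM in RW, 526, 421 and 432 in aJ1aJ2, and 236, 249 and 273 in aN1aN2. The 3 groups did not overlap, with aJ1aJ2 between the others. The log2 change was -0.33 in aJ1aJ2 (edgeR adjusted p 0.19), which was not called, and -1.19 ± 0.11 SE in aN1aN2 (1.21e-06). The difference between the blockades was -0.87 (6.01e-05). Uqcr11 fell by 0.92, Uqcrb by 0.86 and Uqcr10 by 0.74 on the log2 scale under receptor blockade. Uqcrc1, a core subunit, fell by 0.52 (edgeR adjusted p 0.00244). The other core subunit, Uqcrc2, was at -0.00 (0.99), the Rieske iron-sulfur protein Uqcrfs1 at -0.12 (0.499) and the hinge protein Uqcrh at -0.06 (0.697), and none of these was called.

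Complex IV held both steep falls and 2 of the 3 rises. Cox7b, a small subunit, was at 615, 643 and 708 CPM in RW, 596, 525 and 531 in aJ1aJ2, and 285, 256 and 291 in aN1aN2. Every aN1aN2 sample lay far below every sample of the other groups, and the log2 change was -1.24 ± 0.10 SE (edgeR adjusted p 4.53e-07). Cox4i1, a regulatory subunit that responds to ATP, was at 1319, 1286 and 1425 CPM in RW and 1325, 1311 and 1531 in aN1aN2. Its values overlapped, with a log2 change of 0.05 (edgeR adjusted p 0.748). Cox6c (-0.75), Cox6b1 (-0.77), Cox6a1 (-0.75), Cox5a (-0.80), Cox5b (-0.58), Cox7c (-0.60), Cox7a2 (-0.61) and Cox8a (-0.39) all fell under receptor blockade. Cox6c2, a near copy of Cox6c whose reads the counting may split, was at -1.09 and not called (edgeR adjusted p 0.0584).

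Cox7a2l is related to the subunit Cox7a2 and, in its long form, is known for joining complexes III and IV into supercomplexes. C57BL/6 mice carry a short form that is known to be unstable and defective in this, so its RNA level is described here with no reading of that function. Its level was 266, 299 and 300 CPM in RW, 301, 410 and 370 in aJ1aJ2, and 566, 585 and 571 in aN1aN2. The aN1aN2 samples were the highest and close to each other, and every aJ1aJ2 sample was above every RW sample. The log2 change was 0.33 ± 0.11 SE in aJ1aJ2 (edgeR adjusted p 0.233) and 1.00 ± 0.11 SE in aN1aN2 (1.05e-05). Between the blockades the difference was 0.67 (0.00068). In the RW and aJ1aJ2 samples of the same number range alone (RW 1 and 2, aJ1aJ2 3 and 4), Cox7a2l rose by 0.48 (0.00919) and Atp5g1 fell by 0.38 (0.0164) under ligand blockade. These were among 7 of 44 members called, where 5.7% of all genes were called in that fit.

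Subunit c, the ring that turns in the membrane part of ATP synthase, is encoded by 3 genes whose mature proteins are identical. They did not move together. Atp5g1 was at 566, 559 and 651 CPM in RW, 538, 421 and 443 in aJ1aJ2, and 221, 220 and 266 in aN1aN2. The groups did not overlap and aN1aN2 was lowest. The log2 change was -0.34 in aJ1aJ2 (edgeR adjusted p 0.223) and -1.34 ± 0.12 SE in aN1aN2 (1.05e-06). Atp5g3 was at 577, 559 and 608 CPM in RW, 569, 519 and 502 in aJ1aJ2, and 357, 379 and 401 in aN1aN2, a log2 change of -0.62 ± 0.10 SE against RW (edgeR adjusted p 0.000168). Atp5g2 went the other way, with 17.6, 35.4 and 39.8 CPM in RW, 45.8, 13.4 and 16.2 in aJ1aJ2, and 62.5, 88.8 and 99.4 in aN1aN2. All 3 aN1aN2 samples were above the other 6, which were widely spread. Its log2 change was 1.43 ± 0.35 SE against RW (edgeR adjusted p 0.00573) and 1.81 ± 0.38 SE against aJ1aJ2 (0.00324). Within the UMIs of the 3 genes, Atp5g1 made up 48.5% to 50.1% in RW and 32.0% to 34.7% in aN1aN2. Atp5g2 made up 1.52% to 3.07% in RW, 1.40% to 3.98% in aJ1aJ2 and 9.77% to 12.97% in aN1aN2.

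**Figure D3:**
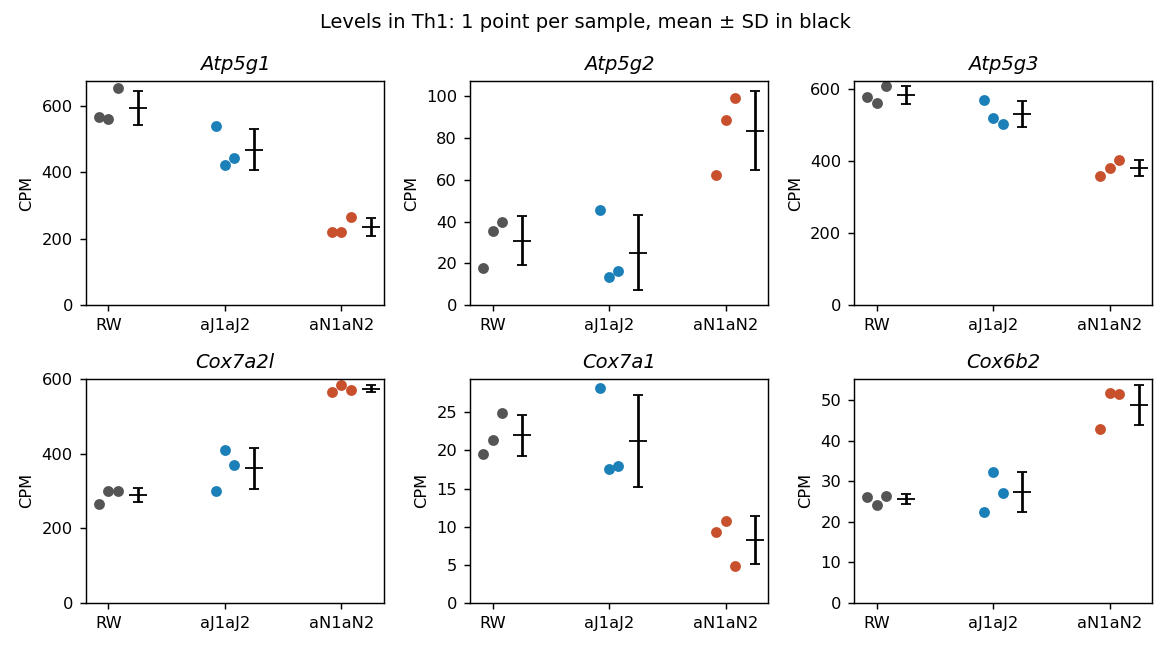
CPM in Th1 (y axis, from 0) of Atp5g1, Atp5g2, Atp5g3, Cox7a2l, Cox7a1 and Cox6b2 in the 3 antibody groups (x axis), with 1 point per sample and the mean ± SD beside it. Atp5g1, Atp5g3 and Cox7a1 are lowest and Atp5g2, Cox7a2l and Cox6b2 highest in aN1aN2, with no overlap with RW.

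Among the other ATP synthase genes, Atp5k (subunit e of the membrane part) fell by 1.03, Atp5o (the stalk protein OSCP) by 0.87, Atp5j2 by 0.83 and Atp5e (the epsilon subunit) by 0.79 on the log2 scale under receptor blockade. The catalytic beta and alpha subunits Atp5b and Atp5a1 fell by 0.61 and 0.43. The gamma shaft Atp5c1 was at 0.05 (edgeR adjusted p 0.746), the delta subunit Atp5d at 0.03 (0.886), Atp5l (subunit g) at 0.16 (0.40) and Atp5s at 0.02 (0.988), and these were not called. The peripheral stalk genes Atp5f1, Atp5h and Atp5j fell by 0.45, 0.46 and 0.65, and Atp5mpl, a small membrane protein of the synthase, by 0.37. Of the related genes outside the set, Usmg5 (a small ATP synthase subunit) fell by 0.78 (edgeR adjusted p 3.63e-05) and Atpif1 (the inhibitor of ATP synthase) by 0.62 (0.000165).

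Promoters of these genes are shown because genes for subunit c moved in opposite directions in the same cells. RefSeq sequences (GRCm38.p6) were on hand for 34 of the 48 members, each covering 300 bases from 250 before to 50 after the annotated start. Both strands were searched for the NRF1 and YY1 consensus motifs, an ETS-family core (CCGGAAG) and an ERR-family site (TNAAGGTCA), factors known for nuclear respiratory genes. NRF1 letters were in 10 of 34 members (29.4%) and in 5.19% of 27025 genes. ETS letters were in 12 of 34 (35.3%) and 9.93% of genes, ERR letters in 2 (5.88%) and 1.43%, and YY1 letters in 0 and 1.17%. The median GC content was 56.0% in the members and 52.7% over all genes, and its part in these shares was not tested. Atp5g1 (chr11:96075582-96075881, minus strand) and Cox7a2l (chr17:83514284-83514583, minus strand) held none of the 4 motifs. Atp5g2 (chr15:102670998-102671297, minus strand) held the NRF1 letters, matched on both strands at the same place. Atp5g3 (chr2:73911277-73911576, minus strand) held NRF1 and ERR letters, and Uqcr11 (chr10:80406772-80407071, minus strand), a member that fell, held the ETS letters. Capitals mark these matches, and the sequences run 5′ to 3′ along the gene.
Atp5g1: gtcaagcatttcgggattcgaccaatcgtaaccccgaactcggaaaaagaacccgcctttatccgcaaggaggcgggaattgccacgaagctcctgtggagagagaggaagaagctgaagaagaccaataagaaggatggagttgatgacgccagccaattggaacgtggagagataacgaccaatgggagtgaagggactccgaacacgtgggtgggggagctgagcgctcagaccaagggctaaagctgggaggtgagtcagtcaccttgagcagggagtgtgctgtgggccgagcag
Atp5g2: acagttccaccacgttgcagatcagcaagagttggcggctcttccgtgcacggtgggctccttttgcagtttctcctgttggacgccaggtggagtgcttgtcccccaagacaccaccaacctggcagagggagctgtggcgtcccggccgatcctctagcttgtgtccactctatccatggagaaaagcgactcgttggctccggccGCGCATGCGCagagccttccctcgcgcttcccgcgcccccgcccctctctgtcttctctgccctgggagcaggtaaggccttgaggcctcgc
Atp5g3: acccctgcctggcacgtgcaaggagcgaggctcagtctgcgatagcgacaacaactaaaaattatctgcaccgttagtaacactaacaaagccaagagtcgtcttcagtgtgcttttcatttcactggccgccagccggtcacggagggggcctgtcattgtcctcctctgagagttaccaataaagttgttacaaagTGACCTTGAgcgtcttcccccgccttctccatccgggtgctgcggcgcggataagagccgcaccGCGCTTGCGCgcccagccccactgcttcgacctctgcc
Cox7a2l: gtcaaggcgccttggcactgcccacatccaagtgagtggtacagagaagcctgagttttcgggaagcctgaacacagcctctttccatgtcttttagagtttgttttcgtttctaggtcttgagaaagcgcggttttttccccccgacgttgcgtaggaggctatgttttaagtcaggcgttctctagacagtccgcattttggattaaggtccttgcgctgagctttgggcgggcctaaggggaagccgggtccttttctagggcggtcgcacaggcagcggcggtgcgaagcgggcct
Uqcr11: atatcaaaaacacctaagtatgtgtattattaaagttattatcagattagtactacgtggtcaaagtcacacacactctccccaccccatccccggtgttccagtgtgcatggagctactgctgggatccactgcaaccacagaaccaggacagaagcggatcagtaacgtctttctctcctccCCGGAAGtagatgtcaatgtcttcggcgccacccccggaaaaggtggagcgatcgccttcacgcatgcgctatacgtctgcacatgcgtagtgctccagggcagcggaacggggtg
Atp5g2 and Atp5g3 both carry NRF1 letters in this window, and the part of any of these motifs in the changes in Th1 was not tested.

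Genes of related pathways are given beside the 34.4% of all genes called in Th1 under receptor blockade. Of 38 tested nuclear complex I genes, 29 fell and 1 rose, with a median log2 change of -0.66. Ndufa1, a small complex I subunit, fell by 1.94 (edgeR adjusted p 1.07e-08) and Ndufb2 by 1.38 (9.75e-07). Cytochrome c itself (Cycs) fell by 1.82 (3.51e-07), and cytochrome c1 (Cyc1), a catalytic part of complex III, by 0.79 (0.000251). Of 38 assembly factors tested, 15 fell and 3 rose, with a median of -0.42. Higd1a, an assembly factor of complex IV, fell by 1.21 (edgeR adjusted p 4.04e-06), whereas Oxa1l, the inner membrane insertase, rose by 1.40 (1.61e-06). Of 17 genes of the citric acid cycle and pyruvate dehydrogenase, 8 fell and 2 rose, with fumarase Fh1 at -1.22 (0.000104) and Idh3b at 0.66 (0.000404). Of 12 regulators of mitochondrial biogenesis, 3 rose and 1 fell, a share near that over all genes, with Ppargc1a (0.75, edgeR adjusted p 0.02) and Tfb2m (0.73, 0.00608) higher. The 13 proteins encoded in the mitochondrial genome were split, with 3 higher and 4 lower, for example mt-Co2 at 1.16 (0.00119) and mt-Nd2 at -0.58 (0.00046). Under ligand blockade edgeR called 0 genes in each of these 6 lists.

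Other measures moved with receptor blockade in Th1, and their part in the members' changes was not tested. The mitochondrial share of Th1 UMIs was 8.07% to 8.83% in RW, 7.87% to 10.1% in aJ1aJ2 and 6.60% to 6.99% in aN1aN2. Thyrocyte markers (10 of 10 detected) summed to 84774 to 121749 CPM in aJ1aJ2 and 97795 to 119289 in aN1aN2, but of the 9 tested 5 fell and 2 rose under receptor blockade, with a median log2 change of -0.66, beside the members' -0.59. Parathyroid markers (3 of 3 detected) ranged from 6.69 to 38.8 CPM across the RW samples and from 95.7 to 231 across the aN1aN2 samples, and Schwann markers (4 of 6 detected) from 222 to 249 and from 91.0 to 96.7. Of 3 Schwann markers tested, however, 1 fell and the median was 0.03. The C-cell markers (6 of 6 detected) lay between 421 and 1083 CPM for RW and between 994 and 1840 for aN1aN2, with 1 of 3 tested higher (median 0.82). Of 5 mural markers tested 3 fell (median -2.06), and of 7 endothelial markers 2 fell (median -0.49). When cells were restricted to at least 2000 UMIs, when sums were thinned to equal totals or when equal numbers of cells were drawn, each fit again gave 33 calls. Over all alternatives the count was 30 to 35, and 29 of the 33 were called in every one of 19. For alternative fits here and below, the share of all genes called is given only where stated.

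The other labels had fewer calls. In EC1 15 of 39 tested members were called under receptor blockade, 2 higher and 13 lower (17.8% of all genes called, 8.83% higher and 8.93% lower). Atp5g1 in EC1 was at 211, 221 and 206 CPM in RW, 213, 186 and 191 in aJ1aJ2, and 97.2, 117 and 138 in aN1aN2. The aN1aN2 samples were below all others, at a log2 change of -0.87 ± 0.15 SE (edgeR adjusted p 0.000211). Atp5k fell by 0.69 (0.00152) and Cox6b1 by 0.53 (0.00413), and Uqcrh rose by 0.37 (0.0274) and Cox7a2l by 0.35 (0.0481). Without aN1aN2 2 the count was 9 and without aN1aN2 3 it was 8, with the share of all genes called in those fits not given here. In every alternative 6 of the 15 were called: Atp5g1, Atp5k, Atp5o, Atp5e, Cox6b1 and Cox7c. Tg, the thyroglobulin gene, was at 686 to 959 CPM in the RW sums of EC1 and 1280 to 1852 in the aN1aN2 sums, RNA that endothelial cells should lack. Of the other markers tested in EC1, 2 of 2 C-cell genes and 1 of 1 parathyroid gene rose and 3 of 4 macrophage genes fell. Of the label's own 8 endothelial markers 2 rose and 2 fell (median -0.04), and 1 of 2 fibroblast markers rose. The part of these shifts was not tested. Against aJ1aJ2 there were 9 calls in EC1 (13.6% of all genes), with Atp5g1 at -0.75 (0.00153) and Atp5g2 at 1.88 (0.00595). That count was 5 without aJ1aJ2 3, 4 without aJ1aJ2 4, 5 without aN1aN2 1, 2 without aN1aN2 2 and 3 without aN1aN2 3.

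Fibroblast-like cells (F) gave 9 calls among 39 members under receptor blockade, 1 higher and 8 lower (19.7% of all genes called, 9.5% higher and 10.2% lower). Atp5o was at 200, 168 and 181 CPM in RW, 189, 178 and 172 in aJ1aJ2, and 69.4, 104 and 86.2 in aN1aN2. The aN1aN2 samples were the lowest, at -1.08 ± 0.23 SE (edgeR adjusted p 0.00279). Atp5k fell by 1.15 (0.00288) and Atp5e by 0.91 (0.00352). Uqcrfs1 was at 69.1, 38.6 and 47.3 CPM in RW and 98.3, 116 and 124 in aN1aN2, and rose by 1.14 (0.00785), whereas in Th1 it was not called. Of the 9, 3 were called in every alternative. Erythroid markers moved with the treatment in F: their sum lay between 108 and 291 CPM for RW and between 873 and 44107 for aN1aN2, with 4 of 4 tested higher. Of 6 fibroblast markers 4 fell and 1 rose (median -1.96), 1 of 5 mural markers fell (median -0.74) and the 1 thyrocyte marker tested rose by 0.84, and the part of these shifts was not tested. Against aJ1aJ2 there were also 9 calls in F (16.1% of all genes), including Atp5o at -1.05 (0.00319), Atp5k at -1.03 (0.00676) and Atp5g2 at 2.91 (0.00815). Without aN1aN2 2 that count was 2.

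In EC2 the 5 calls among 38 members under receptor blockade were all lower (15.5% of all genes called, 8.85% higher and 6.62% lower). Atp5o in EC2 was at 341 and 262 CPM in the tested RW samples (1 and 2), 198 and 217 in aJ1aJ2 3 and 4, and 94.2, 49.0 and 134 in aN1aN2, a log2 change of -1.81 ± 0.32 SE (edgeR adjusted p 0.00119). It was the lone call of the 5 that held in every alternative. The other calls were Cox7b (-0.77), Atp5e, Cox6b1 and Atp5k, and leaving out any of RW 1, RW 2, aN1aN2 1, aN1aN2 2 or aN1aN2 3 brought the count to 2, 2, 2, 2 and 1. Against aJ1aJ2 Atp5o was lower (-1.24, 0.0184) and Atp5l higher (0.97, 0.028), 2 calls (10.5% of all genes), and these became 1, 0 and 1 without aJ1aJ2 4, aN1aN2 1 or aN1aN2 2. Of the markers tested in EC2 under receptor blockade, 1 of 8 mural (median 1.12) and 1 of 7 skeletal muscle genes (0.48) rose, 1 of 8 endothelial genes rose and 2 fell (0.16), and the part of these shifts was not tested. EC4 gave 3 calls among 37 (21.1% of all genes), with Uqcrh at 0.78 (0.00839), Cox7a2l at 0.67 (0.0343) and Atp5g1 at -1.09 (0.0062), and none without RW 1. The mitochondrial share of EC4 UMIs was 9.04% to 11.7% in RW and 5.51% to 6.99% in aN1aN2. Of the markers tested there, 2 of 2 C-cell (median 1.72), 1 of 1 parathyroid (2.83) and 1 of 4 erythroid genes (1.49) rose. Of 7 endothelial genes 1 rose and 2 fell (0.13), and the part of all these shifts was not tested. Uqcrh was also higher than in aJ1aJ2 in EC4 (0.77, 0.00894), the 1 call there (17.2% of all genes). In EC3 Atp5l was higher than in aJ1aJ2 (1.18, 0.0219), again 1 call (1.14% of all genes). In that comparison 2 of 4 erythroid markers rose (median 1.80) and 1 of 10 endothelial markers fell (-0.15), and their part was not tested.

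**Figure D4:**
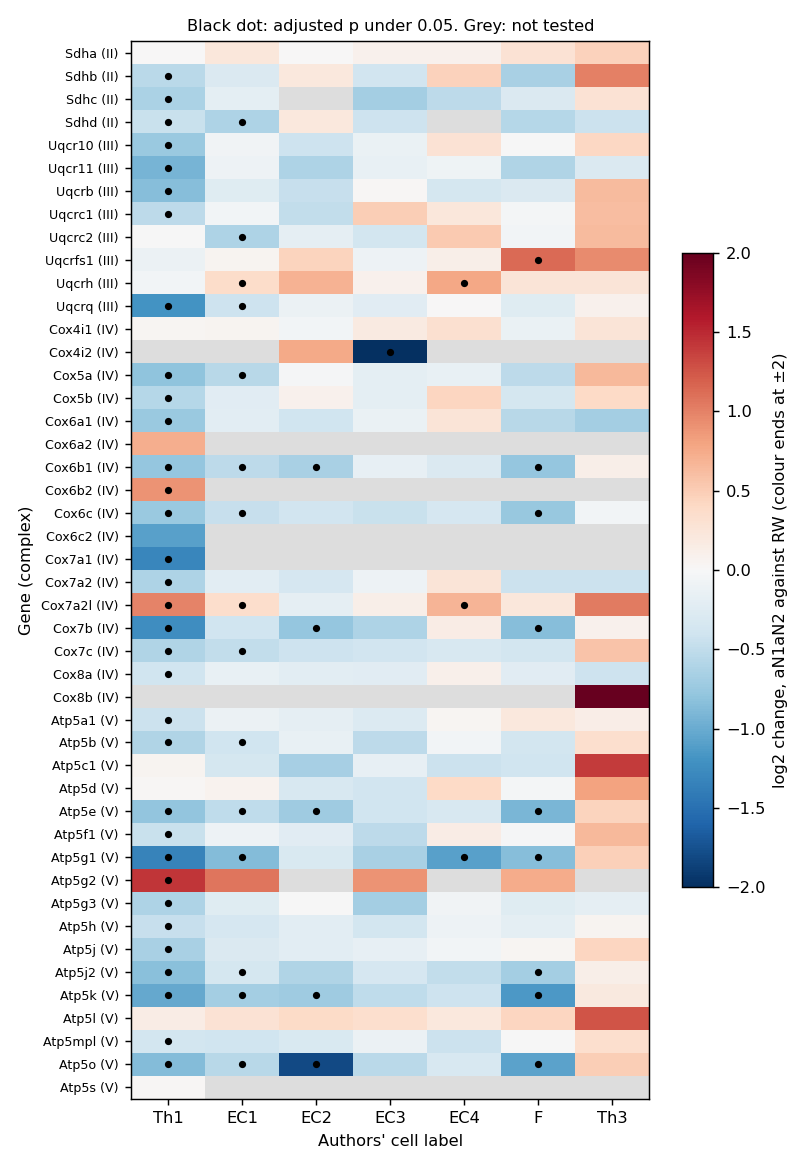
Log2 change, aN1aN2 against RW, of each member (y axis, with its complex) in 7 cell labels (x axis), with a black dot where the edgeR adjusted p was under 0.05 and grey where it was not tested. The Th1 column holds 33 dots, EC1 15, F 9, EC2 5, EC4 3, EC3 1 and Th3 0.

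The difference in response between labels was tested directly with an interaction term. Between Th1 and EC1, 8 of 44 members differed under receptor blockade (8.68% of all genes), 6 with the lower and 2 with the higher change in Th1 (3.79% and 4.89% of all genes). The complex III genes Uqcr11 (difference -0.76, edgeR adjusted p 0.00112) and Uqcrq (-0.72, 0.00258) and the complex IV gene Cox7b (-0.78, 0.00258) had the smallest adjusted p. The count was 5 without RW 2 and 4 without aN1aN2 1. Between Th1 and F 3 of 42 differed (5.47% of all genes), with Cox7a2l at 0.85 (0.0122), Uqcrfs1 at -1.16 (0.0183) and Uqcrq at -0.88 (0.0316). The count was 1 without RW 3, aN1aN2 1 or aN1aN2 2 and 0 without RW 2. Under ligand blockade edgeR's interaction test called 0 members against EC1 (0.369% of all genes) and 0 against F (0.338%). There 2 of 44 and 3 of 42 members had an unadjusted edgeR p under 0.05, and the count over all genes at that p is not given here. DESeq2 was not run on the interaction.

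Ligand blockade gave no member call against RW in 10 of the 11 other labels where it could be tested. By edgeR the count was 0 in EC1 (1.42% of all genes called), EC2 (1.91%), EC4 (0.871%), F (0.579%), Eryth2 (0.358%) and M, S, T1, Th3 and Eryth1 (0% each). At an unadjusted edgeR p under 0.05 EC1 had 1 of 39 members (1185 of 9369 genes) and EC2 9 of 38 (407 of 2508). EC4 had 2 of 37 (317 of 3101), F 2 of 39 (412 of 4840) and Eryth2 1 of 12 (15 of 279). M had 0 of 38 (78 of 2097), S 5 of 37 (237 of 2070) and T1 0 of 37 (104 of 2933). Th3 had 1 of 39 (74 of 2087) and Eryth1 0 of 3 (7 of 143), and DESeq2 called 0 members in all 10 labels. The label S, with Schwann markers, had a median of -1.03 for its members. RW 1 stood apart there, with a member share of 2.89% beside 1.45% in RW 3 and 1.04% to 1.21% in aJ1aJ2. Without RW 3, with RW 1 as the lone control assumed to vary like the other group, 32 of 38 members were lower in S, where 39.1% of all genes were called, so many genes beside the members differed from RW 1 too. The same count came with the number range as a term (40.6% of all genes) and in range B alone (39.1%), and without RW 1 there were 0 calls and a median of -0.13. Receptor blockade gave 0 calls in Eryth1 (7.69% of all genes), Eryth2 (8.6%) and Th3 (5.03%) against RW. Against aJ1aJ2 it gave 0 in Eryth1 (6.29%), Eryth2 (9.32%), Th3 (1.44%) and SM (3.75%), where SM carries mural markers. The unadjusted counts against RW were 1 of 3 members in Eryth1 (27 of 143 genes), 4 of 12 in Eryth2 (78 of 279) and 4 of 39 in Th3 (465 of 2087). Against aJ1aJ2 they were 1 of 3 in Eryth1 (26 of 143) and 4 of 12 in Eryth2 (72 of 279). In Th3 and SM they were 0 of 39 (303 of 2087) and 1 of 39 (460 of 3014). DESeq2 called 1 member (Cox7a2l in Th3 against RW) and 0 in the others.

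Some subunits come in pairs of isoforms, and the share of the rarer form was counted in each label. Cox4i2, the form of subunit 4 found in lung and in mural cells, made up 207 of 899 UMIs of the Cox4i1 and Cox4i2 pair in SM, or 23.0% (95% Clopper-Pearson interval 20.3% to 25.9%, which covers counting error only). The share in SM was 24.6% in RW, 16.0% in aJ1aJ2 and 28.9% in aN1aN2. It was 5.65% in EC2 and 4.81% in EC3, and at most 0.70% in every other label, with 0.10% in Th1. In Th1 the Cox4i2 UMIs were 20, 1 and 10 in RW, 1, 0 and 1 in aJ1aJ2, and 0, 0 and 0 in aN1aN2. Per UMI the RW sum was 10.9 times the aJ1aJ2 sum (counting interval 2.77 to 93.7) and at least 3.98-fold higher than the aN1aN2 sum, taking 3 counts over the group as the floor. RW 1 held 20 of the 31 RW UMIs, and without it the values were 6.44 times (1.40 to 59.8) and at least 2.35-fold. The ratio to aJ1aJ2 was 16.3, 4.99 and 17.1 without aJ1aJ2 1, 3 or 4, and the bound for aN1aN2 was 2.30 and 2.48 without aN1aN2 1 or 2. Mural markers in Th1 summed to 40.8 to 113 CPM in RW, 32.4 to 71.7 in aJ1aJ2 and 23.4 to 32.3 in aN1aN2, and their part in this difference was not tested.

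In EC3 Cox4i2 was the 1 member called against RW in each blockade (0.0618% of all genes in aJ1aJ2 and 5.91% in aN1aN2), but it passed the filter through the RW samples, where it is high, so these calls support nothing and the counts are given in their place. Its UMIs were 50, 21 and 33 in RW, 1 and 0 in aJ1aJ2 3 and 4, and 0, 3 and 3 in aN1aN2, with 7 more in aJ1aJ2 1, whose 17 cells were too few to test. The levels were 94.8, 40.0 and 82.5 CPM in RW, 2.29 and 0 in aJ1aJ2, and 0, 18.0 and 19.7 in aN1aN2. No blockade sample reached the lowest RW sample. With aJ1aJ2 1 included the RW sum was 8.76 times the aJ1aJ2 sum (counting interval 4.29 to 20.8), beside 52.2 (9.16 to 2080) without it and 5.50 (2.58 to 14.0) without aJ1aJ2 3, and it was 5.40 times the aN1aN2 sum (2.40 to 15.0). Of the 104 RW UMIs, 101 lay in EC3 cells that held 2 or more UMIs of mural markers. Such cells numbered 46 of 134 in RW, 25 of 139 in aJ1aJ2 and 22 of 92 in aN1aN2, and the mural markers summed to 3036 to 4861 CPM in RW, 1162 to 1687 in aJ1aJ2 and 801 to 1089 in aN1aN2. With these cells left out 3 Cox4i2 UMIs remained in RW, 0 in aJ1aJ2 and 2 in aN1aN2, too few to compare. DESeq2 made no call for aJ1aJ2, and without RW 1 edgeR made none for either blockade.

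Cox6a2, the heart and skeletal muscle form of subunit 6a, made up 839 of 1496 pair UMIs in Th3, or 56.1% (95% interval 53.5% to 58.6%). These were 23 of 371 UMIs in RW, 218 of 446 in aJ1aJ2 and 598 of 679 in aN1aN2. Nearly all came from a few cells: 201 of 207 UMIs in aJ1aJ2 1 lay in 10 cells with at least 10 muscle marker UMIs, and 593 of 595 in aN1aN2 2 lay in 2 cells. The same 2 cells held all 222 UMIs of Cox8b, the muscle form of subunit 8, and 80 of 82 UMIs of Cox7a1, the muscle form of subunit 7a, in that sample. Skeletal muscle markers reached 70518 CPM in the aJ1aJ2 sums of Th3 and 155376 CPM in the aN1aN2 sums, beside 133 to 786 in RW. Without aJ1aJ2 1 and aN1aN2 2, a choice made after seeing the data, 5 of 38 members were called in Th3 between aN1aN2 and RW (7.86% of all genes in that fit). These were Atp5g1 (-1.92, edgeR adjusted p 0.00129), Uqcrq (-1.37, 0.00692), Atp5k (-0.90, 0.0309) and Atp5e (-0.84, 0.0318) lower and Cox7a2l (1.08, 0.0415) higher. Against aJ1aJ2 Atp5g1 (-1.61, 0.0119) and Uqcrq (-1.25, 0.0366) were then lower (2.07% of all genes). Over all samples of Th3 the C-cell markers summed to between 33584 and 73984 CPM for RW, 2544 and 20151 for aJ1aJ2, and 647 and 13360 for aN1aN2. Of 4 tested none was called against RW by edgeR in the fit with all samples (median -4.21), and the part of this shift in the 5 calls was not tested.

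In Th1 the muscle forms stayed minor. Cox6a2 was at 7.47, 7.36 and 7.92 CPM in RW, 9.06, 4.61 and 13.3 in aJ1aJ2, and 10.9, 12.6 and 15.6 in aN1aN2. Its change of 0.72 ± 0.34 SE against RW was not called (edgeR adjusted p 0.117). Cox7a1 was at 19.6, 21.4 and 24.9 CPM in RW, 28.2, 17.5 and 17.9 in aJ1aJ2, and 9.24, 10.8 and 4.79 in aN1aN2, from 17, 18 and 4 UMIs. The aN1aN2 samples were the lowest, at -1.31 ± 0.28 SE (edgeR adjusted p 0.00189), but pooling Th1 with Th3 turned this to 0.19 (0.846). The pool adds 82 Cox7a1 UMIs from Th3 in aN1aN2 2, of which 80 lay in 2 cells with muscle marker UMIs. Their part in the pooled value was not tested. The muscle markers (10 of 10 detected) summed to 10.0 to 13.4 CPM in RW, 13.6 to 49.8 in aJ1aJ2 and 10.8 to 55.2 in aN1aN2 in Th1.

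Cox6b2, known as the testis form of subunit 6b, was present in thyrocytes and rose in them. It was at 26.2, 24.1 and 26.3 CPM in RW, 22.4, 32.3 and 27.2 in aJ1aJ2, and 42.9, 51.6 and 51.5 in aN1aN2. Every aN1aN2 sample was above every other sample, with a log2 change of 0.90 ± 0.16 SE (edgeR adjusted p 0.000433), while its partner Cox6b1 fell by 0.77 (8.88e-05). Cox6b2 made up 2.82% to 3.15% of pair UMIs in RW, 2.72% to 4.29% in aJ1aJ2 and 8.38% to 10.1% in aN1aN2. Among the other labels it made up 46 of 87 UMIs in Eryth2, or 52.9% (95% interval 41.9% to 63.7%), 6.31% in F and in SM, and 0.20% in EC1.

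**Figure D5:**
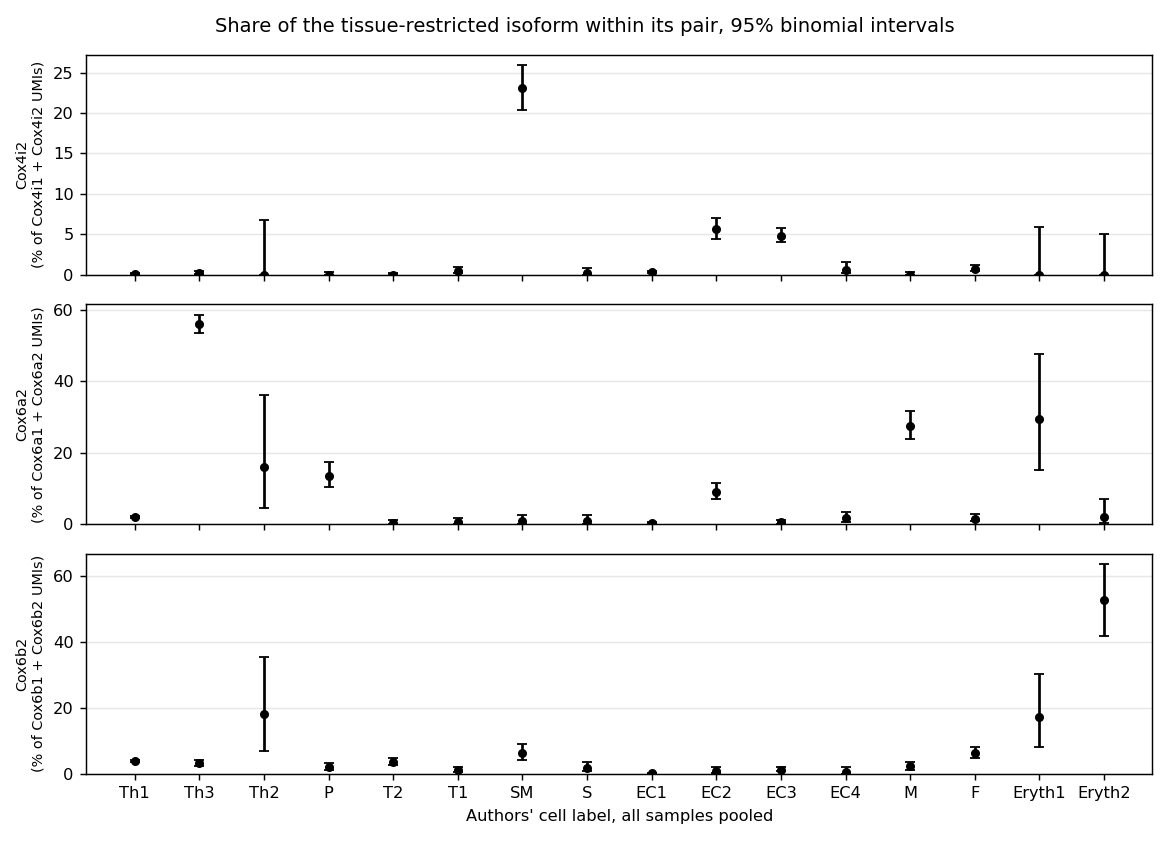
Share of Cox4i2, Cox6a2 and Cox6b2 UMIs within their isoform pairs (in %, y axis, 1 panel each) in every cell label with all samples pooled (x axis), with 95% binomial intervals for counting error. Pooled, Cox4i2 is highest in SM (23.0), Cox6b2 in Eryth2 (52.9) and Cox6a2 in Th3 (56.1), where 12 cells of aJ1aJ2 1 and aN1aN2 2 hold most Cox6a2 UMIs.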

How the data were processed

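The authors deposited 1 table of raw UMI counts per gene and cell for the 9 samples and 1 annotation table with a sample and a cell label per cell. Libraries were made with a 10x Genomics 3' kit, per the labels' protocols, and Cell Ranger and GRCm38 are named in the submitters' processing notes, with no version. Strand handling, treatment of near-identical copies, doublet removal and the making of the labels are not given in the sources used here, and no doublet caller was run. Cells held 500 to 131347 UMIs. In 2619 annotation lines a comma had shifted the columns, which was corrected on reading. Symbols matched 52403 of 52636 gene identifiers.

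Counts were summed per sample and label (minimum 20 cells), filtered with filterByExpr, scaled by TMM and fitted with edgeR 4.0.16 in R 4.3.3 (quasi-likelihood, the 3 groups in 1 fit per label, Benjamini-Hochberg over all genes). Label differences used an interaction term with the sample as a block, and DESeq2 1.42.0 was an alternative. The fits were tested on simulated data. Replicate numbers came from the titles, and RW 3 and aJ1aJ2 1 carry none there. Each sample is a separate pool of 6 mice. Shares of counts carry 95% Clopper-Pearson intervals, which cover counting error only, and sums of few UMIs are the least precise. Alternatives covered scaling, filters, thinning, cell numbers, depth, the number range and leaving out each sample.

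The members, lists and tests were chosen with earlier results of these data known. Named in Th1 were, per complex and comparison, the called members with the largest rise and fall, all complex II genes and the isoform pairs. Elsewhere up to 3 called members with the smallest adjusted p were named, and up to 2 genes per pathway list. Other named genes were chosen after their values were seen. Genes with no promoter in the RefSeq table were Sdhc, Uqcrb, Uqcrc2, Uqcrq, Cox4i1, Cox4i2, Cox6a2, Cox6c, Cox6c2, Cox8c, Atp5a1, Atp5f1, Atp5mpl and Atp5s.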

Additional observations from a re-analysis of the deposited data

Results flagged for a closer look

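The following members are listed because a test of the difference itself was past its threshold between labels under receptor blockade. Between Th1 and EC1, where 8 of 44 members and 8.68% of all genes differed, the log2 change in Th1 was lower by the interaction test for Cox7b (difference -0.78), Uqcr11 (-0.76), Uqcrq (-0.72), Uqcr10 (-0.61), Uqcrb (-0.54) and Cox6a1 (-0.47). It was higher for Atp5c1 (0.48) and for Cox7a2l (0.71). The edgeR adjusted p ranged from 0.00112 for Uqcr11 to 0.048 for Atp5c1. Between Th1 and F 3 of 42 members differed, near the 5.47% of all genes, and the count was 0 to 2 with 1 sample left out. The differences were -1.16 for Uqcrfs1 (edgeR adjusted p 0.0183), -0.88 for Uqcrq (0.0316) and 0.85 for Cox7a2l (0.0122).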

How the results depend on the processing

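Of 587 settings of counts and shares, 502 stayed within set limits. These limits were 1.5 times or 1 SD of the reported value for counts and the 95% interval of the reported value for isoform shares. Of the settings for named members, 1287 kept direction and side of the threshold, 95 lost the call, 7 gained one and 1 reversed: Cox7a1 in Th1 under receptor blockade was at 0.19 with Th1 and Th3 pooled. The cause was not tested for these changes. Calls below are counts of members. In EC1, ligand blockade gave 1 in number range B alone (Atp5g2), and aN1aN2 against aJ1aJ2 gave 5 by DESeq2, 4 after thinning and 3 with equal cells. In EC2, aN1aN2 against RW gave 3 without TMM, 1 by DESeq2, 2 with no filter, 2 with 2 groups only, and 1 after thinning or with equal cells, and against aJ1aJ2 0 by DESeq2, thinning or equal cells. In EC3, ligand blockade gave 0 by DESeq2, thinning, equal cells, at least 2000 UMIs, the number range as a term or range B alone. Receptor blockade in EC3 gave 0 after thinning or with at least 2000 UMIs, and against aJ1aJ2 0 after thinning or with equal cells. Without cells holding mural UMIs, chosen after seeing the data, all 3 EC3 counts were 0, but this removes 101 of 104 RW UMIs of Cox4i2 and so tests nothing of it. In EC4, aN1aN2 against RW gave 1 by DESeq2 and 0 with equal cells, and against aJ1aJ2 2 without TMM and 0 with equal cells. Eryth2 gave 1 (Atp5b) against aJ1aJ2 with mitochondrial genes out of the totals or after thinning. F gave 4 against aJ1aJ2 after thinning, with equal cells or with at least 2000 UMIs. S gave 32 under ligand blockade with the number range as a term (40.6% of all genes) or range B alone (39.1%), but both leave RW 1, the sample that stands apart, as the lone control and adjust for no range. Th1 gave 1 under ligand blockade with no filter (Cox4i2) and 7 in range B alone. Th3 gave 3 under ligand blockade with no filter (Cox8b, Cox6a2 and Cox7a1). Receptor blockade in Th3 gave 1 by DESeq2, 4 with no filter (the same genes and Atp5g2), 1 after thinning, and 5 without aJ1aJ2 1 and aN1aN2 2, which gave 2 against aJ1aJ2. In cells of at least 2000 UMIs, Cox6a2 made up 69.0% and Cox8b 22.3% of their pairs in Th3.

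Except where stated, the share of all genes called in the alternative fits is not given here. Whether the counts of members followed a change over all genes was not tested. Leaving out 1 sample at a time gave these lowest and highest counts. Against RW, ligand blockade gave 0 to 1 in EC1, 0 to 1 in EC3, 0 to 32 in S and 0 to 4 in Th1. Receptor blockade gave 8 to 16 in EC1, 1 to 2 in EC2, 0 to 1 in EC3 and 0 to 3 in EC4. Against aJ1aJ2 it gave 2 to 6 in EC1, 0 to 2 in EC2, 0 to 1 in EC3, 0 to 1 in Eryth2 and 2 to 8 in F. The interaction gave 4 to 7 against EC1 and 0 to 2 against F.

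RW 1 and 2 share numbers with aN1aN2 1 and 2. Same-numbered deviations correlated at 0.0244 and -0.0134 over 10627 genes, so no strong shared deviation was seen. So few pairs cannot exclude a weaker one. The samples aJ1aJ2 3 and aN1aN2 3, which also share a number, were not compared in this way. With the replicate block the receptor counts were 33 in Th1, 14 in EC1, 3 in EC2, 1 in EC3, 2 in EC4, 8 in F and 0 in Th3, Eryth1 and Eryth2. Small sums such as those of EC2, EC4 and Th3 limit what these counts can show.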

Other observations

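Cox6a2, the muscle form of subunit 6a, was also found outside muscle-rich sums. In the label M, 147 of 149 Cox6a2 UMIs lay in 4 cells, 1 from RW 2 and 3 from aJ1aJ2 3. These 4 cells held 153 UMIs of Siglech, a marker gene of plasmacytoid dendritic cells, 216 of Bst2 (tetherin), 110 of Klk1 (a kallikrein protease) and 21 of Ccr9 (a chemokine receptor). They held 0 UMIs of the macrophage genes C1qa, C1qb, C1qc, Csf1r, Adgre1 and Lyz2, but 9 of Cd68, another macrophage gene, in 4 of the 4, and 0 of the muscle genes Ckm, Acta1, Mylpf and Tnnt3. The other 374 cells of M held 2 Cox6a2 UMIs, 6057 of C1qa and 603 of Cd68. These genes were looked up after the values were seen.

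In the label P, which carries parathyroid markers, Cox6a2 made up 56 of 412 pair UMIs, or 13.6% (95% interval 10.4% to 17.3%). The share was 18.7% in RW, 14.2% in aJ1aJ2 and 5.04% in aN1aN2, and the label was too small to test. Skeletal muscle markers in P summed to 3.48 to 5.32 CPM in RW, 9.73 to 112 in aJ1aJ2 and 0 to 59.4 in aN1aN2.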
